A study of Homo sapiens with 6 samples.

Results

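Homologous recombination and Fanconi genes were examined in 7R, a line of 786-O cells that the labels call sunitinib-resistant, against 786-O, the established human line of clear-cell renal carcinoma that served as its control. Sunitinib is an inhibitor of receptor tyrosine kinases. The 32 genes were chosen by symbol, from knowledge of the pathway, out of 54261 gene rows, and all 32 were found. The labels give 3 libraries of total RNA from each line, called 7R replicates 1 to 3 and 786-O replicates 1 to 3, grown in the same medium. They do not say whether 7R is 1 clone, whether the drug was present at harvest, or whether each library had a culture of its own. The p-values therefore cover the spread among these 6 libraries, which may be technical.

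Homologous recombination repairs broken DNA by copying an intact sister chromatid. Broken ends are trimmed by the RAD50, NBN and MRE11 complex with RBBP8 and EXO1, and BRCA1, BARD1, PALB2 and BRCA2 then prepare the trimmed strand for strand exchange. The Fanconi pathway removes crosslinks between DNA strands: a core complex attaches ubiquitin to FANCD2 and FANCI, which brings in nucleases and recombination factors. ATM and ATR are the kinases that signal breaks and stalled replication.

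The 7R libraries held between 37919629 and 38131634 counts and the 786-O libraries between 48264905 and 52221491. Levels below are TMM-scaled CPM (counts scaled to library size, with edgeR's TMM factors). A gene with no count could still lie at up to 0.0707 CPM (3 counts) for counting error. Fold changes are 7R over 786-O on the log2 scale with their standard error (SE), tested with edgeR's quasi-likelihood test over 16642 genes that passed the low-count filter, all 32 members included, at an adjusted p of 0.05. Fold change in this table followed the GC content of transcripts (Spearman's rho -0.69 across 14201 tested genes with a GC value), and replicates of a line also differed along GC content. Each fold change is therefore followed by its value once smooth trends in GC content and length were taken out library by library, called the adjusted value. The 7R replicate 1 stood apart from the other 7R libraries: its chi-square per degree of freedom was 62.9 and 60.1 against them, while that of the other 7R pair was 8.94 and those of the 786-O pairs lay between 12.4 and 35.5. Renal and epithelial markers were present (11 of 13 tested, UMOD at 0 in each library). Of these 2 were higher and 7 lower in 7R before adjustment, and 4 were higher and 4 lower after it. Marker sums are CPM by library size alone, without TMM factors. The renal list summed to 3881 to 4930 CPM per library in 7R and 11463 to 12175 in 786-O. A brain region appears in the labels' text on extraction. Of 14 brain markers, GAD2, STMN2 and MOG were at 0 in each library, 7 were tested, 4 higher and 1 lower, and the list summed to 61.0 to 68.3 CPM in 7R and 29.2 to 33.3 CPM in 786-O. Of 12 endothelial, immune and stromal markers, PTPRC and CD3E were at 0 in each library, and the list summed to 34.6 to 60.2 CPM in 7R and 41.5 to 46.3 CPM in 786-O. Their part in the results was not tested.

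Most of the genes were higher in 7R before adjustment. Of 32 members 22 rose, 8 fell and 2 did not pass the test, where 76.2% of all genes tested were called (39.3% higher and 36.9% lower). The median log2 fold change of the members was 0.86, beside 0.05 over all genes tested. At least 2-fold changes were called for 13 higher and 6 lower members, against a background of 49.4% of genes. The values of the lines did not overlap for 30 members, against a background of 80.3%. After adjustment the picture was mixed: 11 members were higher, 13 were lower and 8 did not pass, with a median of -0.07 (0.02 over all genes), where 67.0% of genes were called (34.3% higher and 32.7% lower). Groups then did not overlap for 24 members, beside 71.8% of genes. The share of members called after adjustment, 24 of 32, was near that of all genes.

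**Figure D1:**
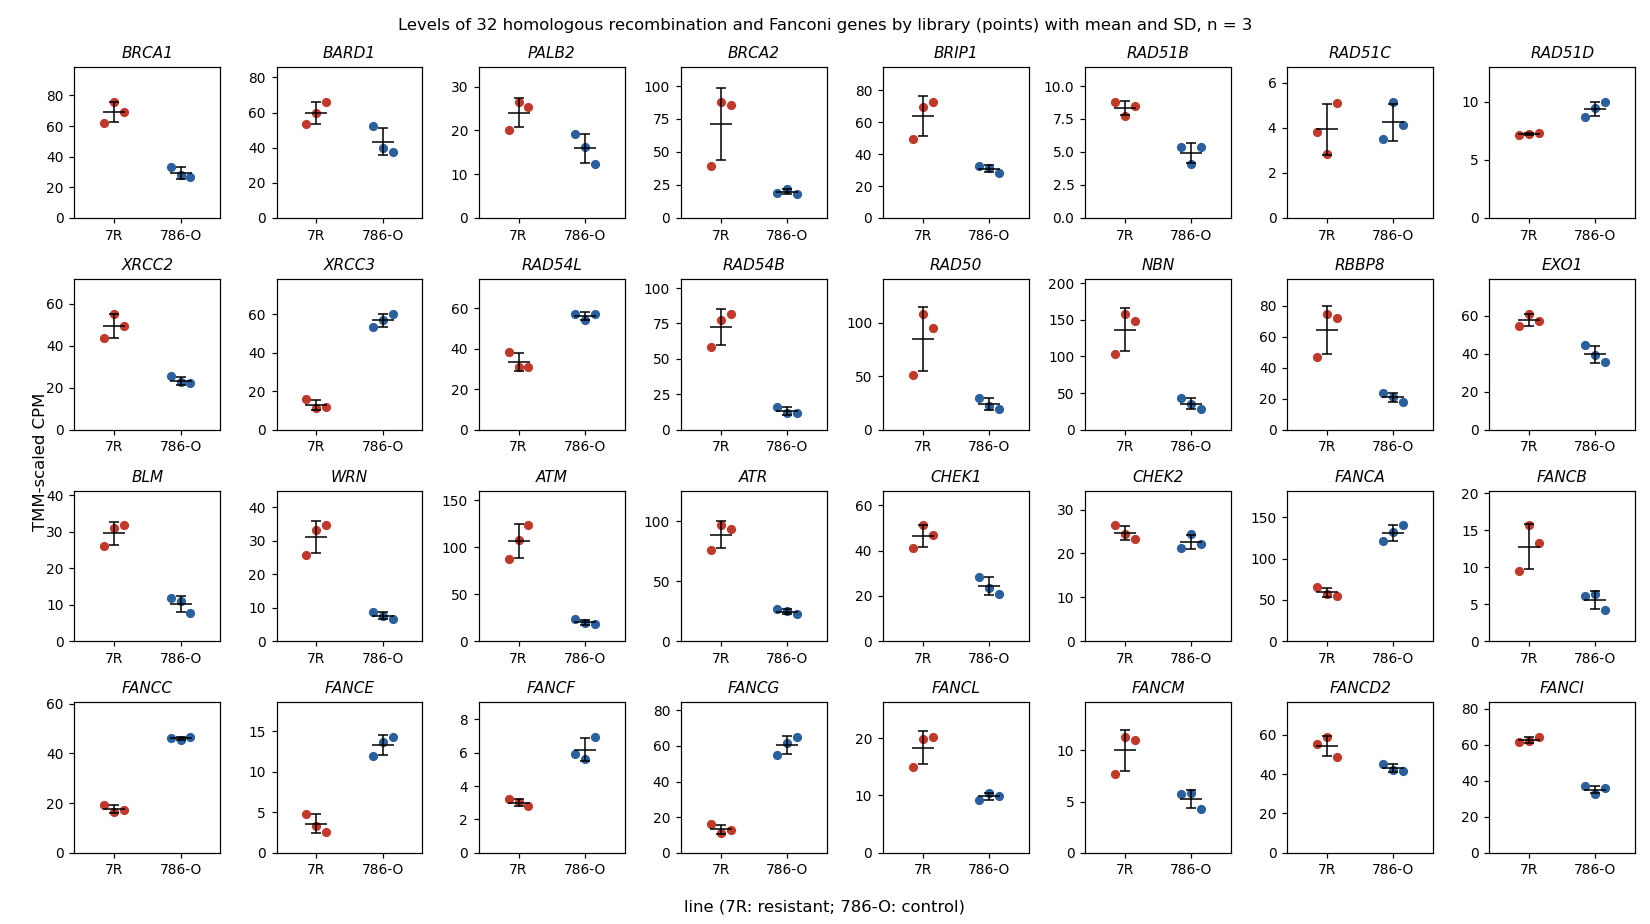
TMM-scaled CPM of the 32 genes in each library of 7R (left, red) and 786-O (right, blue), each panel with its own axis from 0; points are libraries and bars the mean and SD of 3. The values of the lines overlap for RAD51C and CHEK2 alone among these panels, and 7R replicate 1, the leftmost point, is the lowest 7R library for 20 of the 22 genes that rose.

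Direction followed base composition within the list. The 22 members that rose had a transcript GC content of 35.7% to 44.7%, and the 8 that fell one of 45.4% to 62.7%, so the ranges did not meet. Across the 32 members Spearman's rho of fold change (log2) with GC content was -0.82 before adjustment and -0.45 after it, given as a description of genes measured in the same 6 libraries. The 7R replicate 1 was the lowest 7R library for 20 of the 22 genes that rose and the highest for 7 of the 8 that fell. Leaving it out changed 0 of the 32 calls before adjustment.

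**Figure D2:**
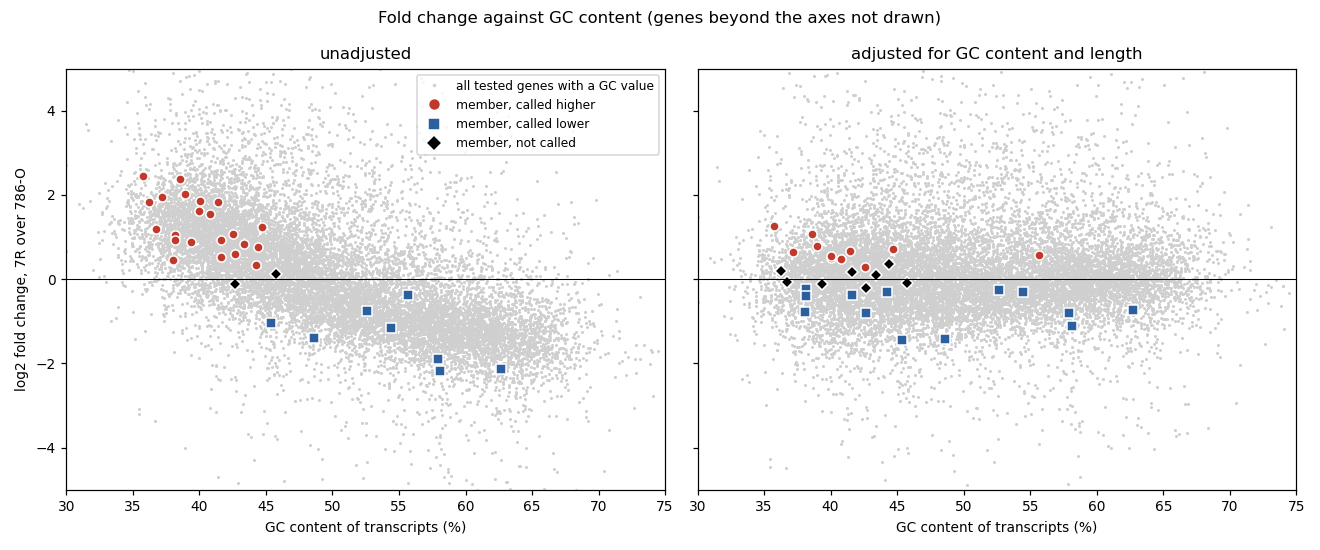
Log2 fold change (7R over 786-O) against the GC content of transcripts (%), before (left) and after (right) adjustment for GC content and length; grey dots are all tested genes with a GC value and larger symbols the 32 members by their call. Before adjustment the members called higher lie between 35.7% and 44.7% GC and those called lower between 45.4% and 62.7%.

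Taking the tests before and after adjustment together, 10 members were higher in both (23.9% of genes were), 7 were lower in both (22.1% of genes), and 6 were called in opposite directions (9.66% of genes). The genes higher in both were BRCA1, XRCC2, RAD54B, RAD50, NBN, RBBP8, BLM, WRN, ATM and ATR. The genes lower in both were XRCC3, RAD54L, FANCA, FANCC, FANCE, FANCF and FANCG. BARD1, BRIP1, EXO1, FANCM and FANCD2 were called higher before and lower after adjustment, and RAD51D lower before and higher after. Of the rest, 7 lost a call of higher, RAD51C was called lower after adjustment alone, and CHEK2 was not called by either test.

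**Figure D3:**
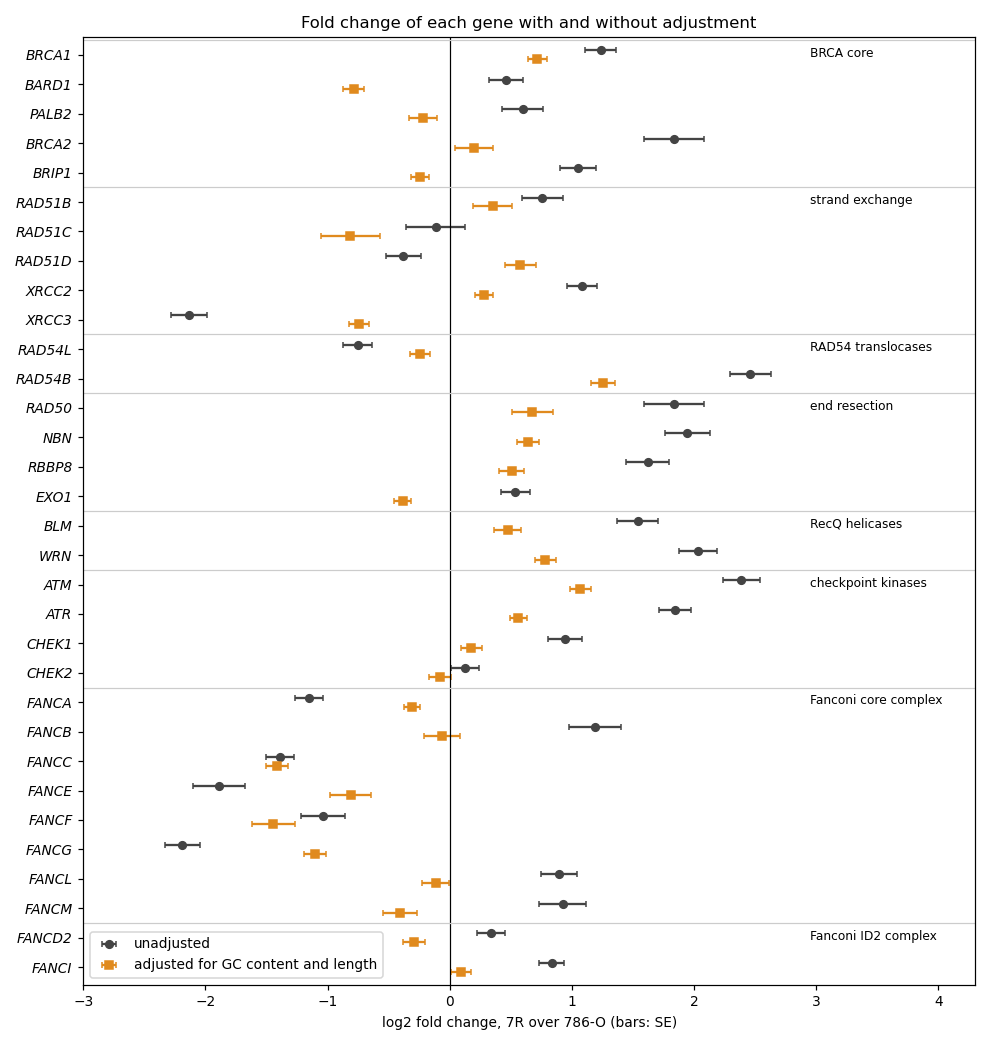
Log2 fold change (7R over 786-O) of each member, ordered by role, before (grey circles) and after (orange squares) adjustment for GC content and length; bars are SE from 3 libraries of each line. Most genes move toward or past 0 after adjustment, while FANCC is at -1.39 before and -1.41 after.

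Both kinases at the head of the damage response were higher in 7R. ATM, which is activated by DNA breaks, had 87.5, 108 and 123 CPM in the 7R libraries and 23.4, 19.7 and 17.9 CPM in the 786-O libraries. Every 7R value of ATM was above every 786-O value, with a log2 fold change of 2.39 ± 0.15 (SE, edgeR adjusted p = 1.32e-07) and an adjusted value of 1.07 ± 0.09 (adjusted p = 9.51e-07). ATR, which responds to single-stranded DNA at stalled forks, had 76.2, 96.7 and 93.9 CPM in 7R and 26.9, 24.9 and 22.4 CPM in 786-O. Its groups did not overlap either, with a log2 fold change of 1.84 ± 0.13 (adjusted p = 2.26e-07) and an adjusted value of 0.56 ± 0.07 (adjusted p = 2.65e-05). Of their target kinases, CHEK1 rose before adjustment and CHEK2 did not pass. CHEK1, the effector of ATR, averaged 46.3 ± 4.94 CPM in 7R and 24.2 ± 3.97 CPM in 786-O (SD, n = 3 each). It rose by 0.94 ± 0.14 before adjustment and did not pass after it (0.18, adjusted p = 0.0922; without 786-O replicate 1 it passed, at 0.24 and adjusted p = 0.0333). CHEK2, the effector of ATM, averaged 24.7 ± 1.56 CPM in 7R and 22.7 ± 1.57 CPM in 786-O, or 0.13 ± 0.11 on the log2 scale (adjusted p = 0.324), with an adjusted value of -0.08. Scaled by library size alone, CHEK2 passed as higher, and with GC content alone adjusted it passed as lower. The median length over the GENCODE basic transcripts of ATM was 587 bases and its longest 13147. With the longest transcript of each gene, the adjusted value of ATM was 0.99.

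Of the genes of end resection 4 of 4 rose before adjustment, beside 39.3% of all genes tested. Their median GC content was 40.7%, beside 48.9% over all tested genes with a GC value. RAD50, the ATPase of the complex that holds broken ends, had 51.5, 109 and 95.1 CPM in 7R and 29.8, 22.5 and 19.2 CPM in 786-O. The 7R replicate 1 was far below the other 7R libraries but above all 786-O libraries, and the log2 fold change was 1.83 ± 0.24 (adjusted p = 2.36e-05). After adjustment RAD50 was still higher, by 0.67 ± 0.17 (adjusted p = 0.00384), although the adjusted level of 7R replicate 1 (43.7 CPM) then lay below that of 786-O replicate 1 (44.0 CPM). NBN, the subunit of that complex that recruits ATM, had 103, 158 and 149 CPM in 7R and 42.8, 35.2 and 28.4 CPM in 786-O. Its log2 fold change was 1.95 ± 0.18 (adjusted p = 1.47e-06), and 0.64 ± 0.09 after adjustment. RBBP8, which starts resection with the complex and is also called CtIP, had 46.7, 74.9 and 72.0 CPM in 7R and 23.7, 21.4 and 17.9 CPM in 786-O. It rose by 1.62 ± 0.18 before and 0.51 ± 0.10 after adjustment, with no overlap in either. EXO1, the exonuclease that extends the trimmed strand, had 54.8, 61.1 and 57.4 CPM in 7R and 44.5, 39.5 and 35.4 CPM in 786-O. EXO1 was higher before adjustment (0.54 ± 0.12, adjusted p = 0.00114) and lower after it (-0.39 ± 0.07, adjusted p = 6.31e-04), and with the longest transcript of each gene it did not pass (-0.10, adjusted p = 0.253). MRE11, the nuclease of the complex, is not a member and appears in the table as MRE11A. It averaged 40.7 ± 3.94 CPM in 7R and 12.6 ± 1.75 CPM in 786-O, with a log2 fold change of 1.69 ± 0.13 and an adjusted value of 0.60.

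The RecQ helicases were higher in 7R in both tests. BLM, which dissolves joined chromatids and is lost in Bloom syndrome, had 25.9, 30.9 and 31.7 CPM in 7R and 11.7, 11.1 and 7.67 CPM in 786-O. Its log2 fold change was 1.54 ± 0.16 (adjusted p = 3.97e-06), and 0.47 ± 0.11 after adjustment (adjusted p = 0.00275). WRN, the Werner syndrome helicase and exonuclease, had 25.6, 33.0 and 34.5 CPM in 7R and 8.75, 7.49 and 6.58 CPM in 786-O. Every 7R value of WRN was above every 786-O value, by 2.03 ± 0.16 before (adjusted p = 4.06e-07) and 0.78 ± 0.09 after adjustment (adjusted p = 1.02e-05).

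Of the BRCA core, 5 of 5 genes rose before adjustment, beside 39.3% of all genes tested. Their median GC content was 38.1%. BRCA1 was the member of the core that was also called higher after adjustment. BRCA1, a ubiquitin ligase that favours recombination over end joining, had 62.3, 75.6 and 69.3 CPM in 7R and 33.6, 27.8 and 26.6 CPM in 786-O. The groups were clear of each other, with a log2 fold change of 1.23 ± 0.13 (adjusted p = 2.82e-06) and an adjusted value of 0.72 ± 0.08 (adjusted p = 1.25e-05), or 0.34 with the longest transcript of each gene. BARD1, the obligate partner of BRCA1, had 53.2, 59.5 and 65.9 CPM in 7R and 52.1, 39.96 and 37.8 CPM in 786-O. The lowest 7R value of BARD1 was just above the highest 786-O value. It rose by 0.46 ± 0.14 (adjusted p = 0.00981), a call that was lost without 7R replicate 3 (adjusted p = 0.0518), 786-O replicate 2 (0.0702) or 786-O replicate 3 (0.0699). After adjustment BARD1 was lower, at -0.79 ± 0.09 (adjusted p = 1.02e-05). PALB2, which joins BRCA1 to BRCA2, averaged 24.0 ± 3.34 CPM in 7R and 15.9 ± 3.40 CPM in 786-O (0.60 ± 0.17, adjusted value -0.22 with adjusted p = 0.109). Without 786-O replicate 3, PALB2 was called lower after adjustment (-0.33, adjusted p = 0.0197). BRCA2, which acts after end trimming to start strand exchange, had 39.4, 87.7 and 85.8 CPM in 7R and 19.1, 22.1 and 18.5 CPM in 786-O. Here too 7R replicate 1 lay well below the other 7R libraries. BRCA2 rose by 1.83 ± 0.25 (adjusted p = 2.46e-05) before adjustment, and its adjusted value of 0.20 ± 0.16 did not pass (adjusted p = 0.271). Without 7R replicate 1 the adjusted value of BRCA2 was 0.41 and passed (adjusted p = 0.00201), and with GC content alone adjusted it was 0.48 and passed (adjusted p = 0.0240). BRIP1, a helicase that binds BRCA1, had 49.5, 69.4 and 72.5 CPM in 7R and 32.8, 31.1 and 28.5 CPM in 786-O. It rose by 1.05 ± 0.15 before adjustment and was lower by a small step after it (-0.24 ± 0.08, adjusted p = 0.0138). That step was not called without 786-O replicate 2 (adjusted p = 0.0541) or 786-O replicate 3 (adjusted p = 0.0543).

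The genes RAD51B, RAD51C, RAD51D, XRCC2 and XRCC3, whose products form complexes that assist strand exchange, did not move as a block: 2 rose and 2 fell of 5 (2 and 1 when scaled by library size alone), and 2 were higher and 2 lower after adjustment. XRCC2 rose, with 43.6, 55.2 and 49.5 CPM in 7R and 25.5, 22.5 and 22.0 CPM in 786-O. Its log2 fold change was 1.08 ± 0.12 (adjusted p = 6.45e-06), and 0.28 ± 0.08 after adjustment (adjusted p = 0.00618). XRCC3 went the other way, with 15.9, 11.2 and 11.8 CPM in 7R and 53.4, 57.0 and 60.3 CPM in 786-O. The highest 7R value of XRCC3 was below the lowest 786-O value, and it fell by 2.13 on the log2 scale (SE 0.14, adjusted p = 1.95e-07) and by 0.74 after adjustment (SE 0.08, adjusted p = 1.05e-05). RAD51C, the partner of XRCC3 in one of these complexes, was low in both lines, at 3.93 ± 1.13 CPM in 7R and 4.26 ± 0.819 CPM in 786-O (-0.12 ± 0.24, adjusted p = 0.671). Its sign turned when scaled by library size alone and without 7R replicate 2, and after adjustment it was called lower (-0.81 ± 0.24, adjusted p = 0.0106). RAD51B averaged 8.32 ± 0.532 CPM in 7R and 4.92 ± 0.749 CPM in 786-O (0.76 ± 0.17, adjusted p = 0.00137), and did not pass after adjustment (0.35, adjusted p = 0.0712). RAD51D, which joins RAD51C to XRCC2, had 7.11, 7.17 and 7.33 CPM in 7R and 8.70, 9.47 and 9.94 CPM in 786-O. RAD51D was narrowly lower before adjustment (-0.38 ± 0.14, adjusted p = 0.0276), not called when scaled by library size alone (-0.04), by upper-quartile factors (-0.32) or with no low-count filter (-0.40). That call was also lost without 7R replicate 2 (adjusted p = 0.0672), 7R replicate 3 (0.0609) or 786-O replicate 3 (0.0640). After adjustment it was higher by 0.58 ± 0.13, but lower, at -0.66, when the longest transcript of each gene was used, so that its direction depends on the transcript taken.

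The RAD54 translocases, motor proteins that remodel DNA for strand exchange, moved in opposite directions. RAD54B had 58.4, 77.2 and 81.8 CPM in 7R and 16.1, 11.5 and 11.9 CPM in 786-O. It had the highest fold change of the 32 in both tests, 2.46 ± 0.17 before (adjusted p = 2.05e-07) and 1.26 ± 0.10 after adjustment (adjusted p = 8.53e-07). RAD54L had 38.4, 30.9 and 30.9 CPM in 7R and 57.3, 54.1 and 57.3 CPM in 786-O. RAD54L fell by 0.75 on the log2 scale (SE 0.12, adjusted p = 9.56e-05) and by 0.25 after adjustment (SE 0.08, adjusted p = 0.0199). The adjusted call of RAD54L was lost without 7R replicate 2 (adjusted p = 0.0658) or 7R replicate 3 (adjusted p = 0.0684), and with the longest transcript (-0.01).

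The Fanconi core complex, the ubiquitin ligase of the pathway, held most of the genes that fell. Of its 8 genes 5 fell and 3 rose before adjustment, and 6 were lower, 0 higher and 2 not called after it (4878 of 14201 genes, 34.3%, were called higher). FANCG, a scaffold subunit bound to FANCA, had 16.0, 11.0 and 12.9 CPM in 7R and 55.1, 61.5 and 65.0 CPM in 786-O. It had the lowest fold change of the 32 before adjustment, -2.19 ± 0.15 (adjusted p = 1.85e-07), and one of -1.10 ± 0.09 after (adjusted p = 1.10e-06). FANCA, the subunit most often mutated in Fanconi anaemia, had 65.2, 57.1 and 54.6 CPM in 7R and 121, 132 and 140 CPM in 786-O. Its 7R values were all below its 786-O values, with a log2 fold change of -1.15 ± 0.11 (adjusted p = 1.80e-06) and an adjusted value of -0.31 ± 0.07.

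FANCC, FANCE and FANCF form the arm of the core complex that binds FANCD2, and all 3 were lower in both tests. FANCC had 19.4, 16.2 and 17.1 CPM in 7R and 46.2, 45.2 and 46.5 CPM in 786-O. Its replicates lay close together and its fold change barely moved with the adjustment, -1.39 ± 0.11 before (adjusted p = 5.69e-07) and -1.41 ± 0.09 after (adjusted p = 1.43e-07), or -1.05 with the longest transcript. FANCE had 4.84, 3.34 and 2.59 CPM in 7R and 11.9, 13.7 and 14.3 CPM in 786-O (-1.89 ± 0.21, adjusted value -0.81 ± 0.17). FANCF had 3.19, 3.01 and 2.80 CPM in 7R and 5.93, 5.65 and 6.94 CPM in 786-O (-1.04 ± 0.18, adjusted value -1.44 ± 0.17). FANCF was the lowest of the 32 after adjustment, and none of the 3 genes had overlapping groups in either test.

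The other core genes had low GC content and were higher only before adjustment. FANCL, the catalytic ubiquitin ligase subunit, averaged 18.3 ± 2.91 CPM in 7R and 9.88 ± 0.632 CPM in 786-O (0.89 ± 0.15, adjusted value -0.12 with adjusted p = 0.385). FANCB, which holds FANCL in the complex and lies on the X chromosome, averaged 12.8 ± 3.09 CPM in 7R and 5.62 ± 1.20 CPM in 786-O (1.19 ± 0.21, adjusted value -0.07 with adjusted p = 0.710). FANCM, the translocase that anchors the complex to DNA, had 7.73, 11.3 and 11.0 CPM in 7R and 5.70, 5.83 and 4.29 CPM in 786-O. FANCM rose by 0.92 ± 0.19 (adjusted p = 8.48e-04) and was lower after adjustment (-0.41 ± 0.14, adjusted p = 0.0209). The adjusted call of FANCM was lost without 7R replicate 1 (adjusted p = 0.0502), 7R replicate 3 (0.0562) or 786-O replicate 2 (0.0890), and with GC content alone adjusted (0.0606).

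Both genes of the substrate pair rose before adjustment, and FANCD2 was called lower after it. FANCI had 61.6, 62.0 and 64.3 CPM in 7R and 36.9, 32.7 and 35.8 CPM in 786-O. It rose by 0.83 ± 0.10 (adjusted p = 1.43e-05), and the adjusted value was 0.09 ± 0.08 (adjusted p = 0.336), or 0.24 and called higher with the longest transcript. FANCD2 had 55.3, 58.9 and 48.7 CPM in 7R and 45.2, 42.1 and 41.5 CPM in 786-O. It rose by 0.34 ± 0.11 (adjusted p = 0.0150), a call lost without 7R replicate 2 (adjusted p = 0.0793), 786-O replicate 2 (0.105) or 786-O replicate 3 (0.0853). After adjustment FANCD2 was lower (-0.29 ± 0.09, adjusted p = 0.0112), a call lost without 7R replicate 3 (adjusted p = 0.0593) and with the longest transcript (adjusted p = 0.0587). The pseudogenes FANCD2P1 and BRCA1P1 had 242 and 305 counts over the 6 libraries, so reads of these copies may be shared with FANCD2 and BRCA1.

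Per length, the order of the genes differed between the lines. Divided by the longest GENCODE transcript, the highest level in 7R was that of NBN (29.3 ± 6.38 CPM per kb), followed by RAD54B (23.6 ± 4.05), RBBP8 (19.6 ± 4.71), EXO1 (16.6 ± 0.919) and XRCC2 (16.1 ± 1.89), neighbours that lay within their SDs. In 786-O the highest were FANCA (24.1 ± 1.75 CPM per kb) and FANCG (23.0 ± 1.91), which lay within their SDs of each other, then XRCC3 (18.9 ± 1.14) and RAD54L (18.1 ± 0.594), which also did. NBN ranked 1 of 32 in 7R and 11 in 786-O, and FANCG ranked 23 in 7R and 2 in 786-O. RAD51D was lowest in 7R (0.721 CPM per kb) and FANCM in 786-O (0.741 CPM per kb). Levels of genes that differ in GC content share the dependence on GC content described above.

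Promoters were read for 28 members from RefSeq (GRCh38.p14), as 250 bases before to 50 after each gene's start. No promoter was read for RAD54B, NBN, WRN and FANCI. Of these, RAD54B, NBN and WRN were higher in both tests, and RAD54B had the highest fold change of all members. The shares below therefore leave out genes that rose, and what their promoters hold was not tested. Their median GC content was 64.8%, beside 58.3% over 27305 promoters. The E2F motif of cell cycle genes, searched on both strands as TTTGGCGC, TTTCCCGC, TTTCGCGC or TTTGCCGC, was present in 5 of 28 (17.9%), beside 3.33% of all promoters. These were EXO1, FANCD2, XRCC2, FANCC and FANCA, of which XRCC2 was higher in both tests, FANCC and FANCA were lower in both, and EXO1 and FANCD2 were called in opposite directions. The CCAAT box, searched as CCAAT, was present in 11 of 28 (39.3%), beside 35.7% of all, and the cell cycle homology element, searched as TTTGAA, in 3 of 28 (10.7%), beside 15.4%. A match is a run of letters and not a bound site. The promoters shown are those of ATM, the gene with the highest fold change for which a promoter was read, and of XRCC3 and FANCC, genes lower in both tests that hold the most CCAAT and E2F matches of the 28. They lie at chr11:108222817-108223116 on the plus strand (ATM), chr14:103715402-103715701 on the minus strand (XRCC3) and chr9:95317660-95317959 on the minus strand (FANCC). Capitals mark matches to any of the 3 motifs on either strand.
ATM: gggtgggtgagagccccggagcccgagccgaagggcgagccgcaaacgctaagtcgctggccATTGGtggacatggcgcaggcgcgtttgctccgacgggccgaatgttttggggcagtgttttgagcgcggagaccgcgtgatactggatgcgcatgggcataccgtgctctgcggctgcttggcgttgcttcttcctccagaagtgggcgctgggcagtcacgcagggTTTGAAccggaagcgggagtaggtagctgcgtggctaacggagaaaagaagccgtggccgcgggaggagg
XRCC3: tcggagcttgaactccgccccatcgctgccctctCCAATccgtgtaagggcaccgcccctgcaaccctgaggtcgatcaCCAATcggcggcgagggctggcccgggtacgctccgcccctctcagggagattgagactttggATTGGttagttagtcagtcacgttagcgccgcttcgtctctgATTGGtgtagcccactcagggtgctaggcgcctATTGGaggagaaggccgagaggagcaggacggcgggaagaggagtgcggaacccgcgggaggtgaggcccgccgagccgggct
FANCC: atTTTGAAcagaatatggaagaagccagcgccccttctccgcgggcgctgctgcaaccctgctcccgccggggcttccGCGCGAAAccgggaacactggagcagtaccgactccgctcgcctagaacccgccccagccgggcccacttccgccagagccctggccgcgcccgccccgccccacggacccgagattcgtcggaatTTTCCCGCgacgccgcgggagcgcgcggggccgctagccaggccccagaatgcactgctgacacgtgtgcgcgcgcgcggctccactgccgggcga
ATM held 1 CCAAT box and 1 TTTGAA, XRCC3 held 5 CCAAT boxes and no E2F match, and FANCC held 2 E2F matches and 1 TTTGAA.

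Some members share a start region or sequence with a neighbour. In GENCODE 29, the start of NPAT, a histone gene activator, lies on the other strand, at -158 bases from that of ATM, the minus sign marking that the transcripts overlap. NPAT was higher in 7R as ATM was, by 1.88 before and 0.52 after adjustment. ZFYVE21 starts 226 bases from XRCC3 and was lower as XRCC3 was, with log2 fold changes of -1.23 and an adjusted value of -0.58. NBR1 starts 236 bases from the outermost annotated start of BRCA1 and was higher (0.82, adjusted value 0.76). NBR2, annotated as a bidirectional promoter RNA, overlaps BRCA1 on the other strand and had 0.29 (adjusted value 0.82). NBR2 is not in the tally below, which takes the outermost start of each gene. For DCTN5, which starts 82 bases from PALB2, the values were -0.40 and -0.99, so it was lower where PALB2 rose before adjustment. Over the 8 tested neighbours that start within 1000 bases on the other strand, 4 were called the same way as their member before adjustment (MOSPD2 beside FANCB was the fourth), 2 the opposite way, and for 2 the member or the neighbour did not pass. The other neighbour called the opposite way was CIDECP beside FANCD2 (-0.65), and the pairs without a call were HSCB (-0.59) beside CHEK2 and FKBP3 (0.15) beside FANCM. After adjustment no pair was called in opposite ways. CIDECP (0.22) did not pass then, nor did PALB2 beside DCTN5 or FANCB beside MOSPD2 (1.62). FKBP3 was lower (-0.72), as FANCM was (-0.41), and HSCB was lower (-0.37) beside CHEK2, which did not pass. The strand setting of the counting is not given in the sources used here, and 9 members overlap a coding gene with at least 1000 counts over the 6 libraries. These are XRCC3 (KLC1), RAD54L (LRRC41), NBN (DECR1), ATM (NPAT), CHEK1 (STT3A), CHEK2 (HSCB), FANCA (ZNF276), FANCL (VRK2) and FANCI (POLG). Reads of a pair could be counted together. ZNF276 had a log2 fold change of -0.65 and an adjusted value of 0.78, where FANCA had -1.15 and -0.31.

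The other genes of the pathway were split before adjustment. Of 61 further recombination and Fanconi genes 59 were tested, of which 23 rose (39.0%, beside 39.3% of all genes) and 27 fell (45.8%, beside 36.9%), with a median of -0.02. After adjustment 13 of 58 were higher (22.4%, beside 34.3%) and 27 lower (46.6%, beside 32.7%), with a median of -0.22. The unadjusted split moved to 30 higher and 23 lower when scaled by library size alone. FAM175A, which encodes the BRCA1-A complex scaffold ABRAXAS1, rose by 1.83 ± 0.14 (adjusted value 0.79). ERCC1, part of a nuclease that cuts crosslinks, averaged 28.2 ± 0.940 CPM in 7R and 85.5 ± 9.17 CPM in 786-O (-1.60 ± 0.12, adjusted value -0.42). FAAP20, a partner of FANCA, had a log2 fold change of -1.63 ± 0.12 and did not pass after adjustment (-0.11). UBE2T, the conjugating enzyme that works with FANCL and was named after its values were seen, had -0.96 before and -1.69 after adjustment, a decrease in both.

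Other repair genes and the cell cycle were set beside the list. Of 18 end joining genes 9 rose (50.0%, beside 39.3% of all genes) and 7 fell (38.9%, beside 36.9%). Scaled by library size alone, 10 were higher and 4 lower. After adjustment 8 were higher (44.4%, beside 34.3%) and 3 lower (16.7%, beside 32.7%). PRKDC, the catalytic subunit of DNA-PK, averaged 1937 ± 48.2 CPM in 7R and 842 ± 55.5 CPM in 786-O (1.20 ± 0.10, adjusted value 0.45). POLQ, the polymerase of microhomology joining, averaged 70.1 ± 12.7 CPM in 7R and 20.6 ± 3.25 CPM in 786-O (1.77 ± 0.16, adjusted value 0.56). C9orf142, which encodes PAXX, and POLL, a gap-filling polymerase, had log2 fold changes of -2.40 and -1.09 (adjusted values -1.01 and, not called, 0.19). Of 15 mismatch repair and associated genes 7 rose (46.7%, beside 39.3% of all genes) and 5 fell (33.3%, beside 36.9%). After adjustment 5 were higher (33.3%, beside 34.3%) and 7 lower (46.7%, beside 32.7%). The clamp loader genes RFC1 and RFC3 rose by 1.67 and 1.26 (adjusted values 0.67 and 0.49), and LIG1, a ligase, and POLD1, a polymerase subunit, had -1.42 and -1.72 (adjusted values -0.22 and -0.32).

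Most genes of DNA replication on the list fell in 7R, while those of division were split before adjustment. Of 28 S phase genes 20 fell (71.4%, beside 36.9% of all genes) and 3 rose (10.7%, beside 39.3%), with a median of -1.09. Scaled by library size alone, 7 were higher and 18 lower. After adjustment 23 were lower (82.1%, beside 32.7%) and 1 higher (3.57%, beside 34.3%), with a median of -0.63. GINS2, a subunit of the replicative helicase, averaged 22.5 ± 1.01 CPM in 7R and 90.8 ± 9.23 CPM in 786-O (-2.01 ± 0.12, adjusted value -1.92). CDT1, MCM5 and TK1, which license origins, unwind DNA and make thymidylate, had log2 fold changes of -2.47, -1.96 and -2.07 (adjusted values -1.06, -0.91 and -0.75). Of 26 G2 and M phase genes 13 fell (50.0%, beside 36.9% of all genes) and 10 rose (38.5%, beside 39.3%), but 11 were lower and 12 higher when scaled by library size alone. After adjustment 18 of them were lower (69.2%, beside 32.7%) and 2 higher (7.69%, beside 34.3%). PLK1, a mitotic kinase, averaged 223 ± 46.4 CPM in 7R and 864 ± 92.3 CPM in 786-O (-1.95 ± 0.15, adjusted value -0.87). UBE2C, BIRC5 and AURKB had -1.47, -1.44 and -1.48 (adjusted values -1.24, -0.93 and -0.57). Many recombination and Fanconi genes are made in S and G2 phase in dividing cells. The part of the cell cycle in the members' changes was not tested.

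**Figure D4:**
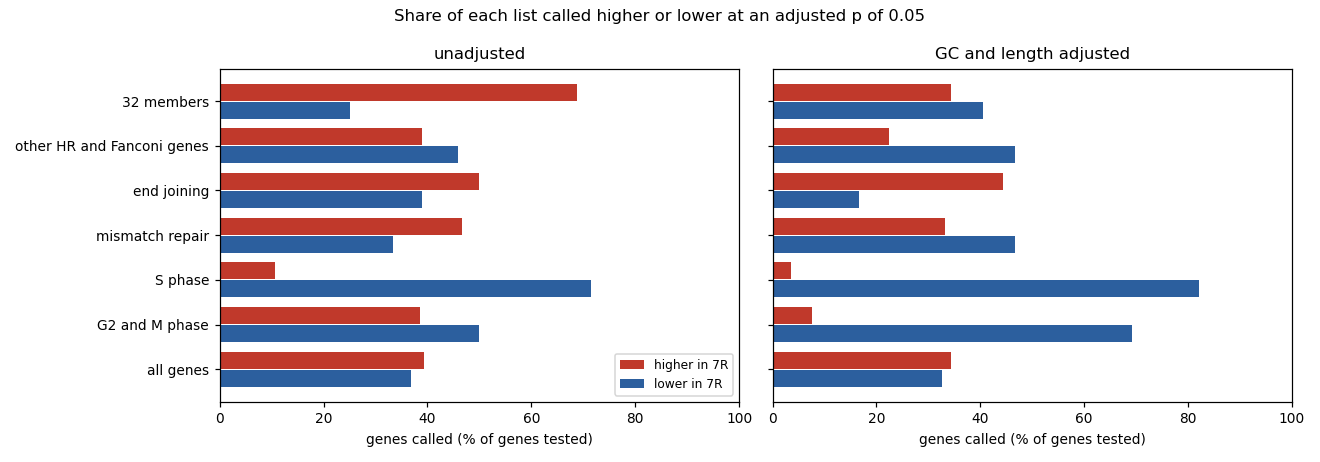
Percentage of tested genes called higher (red) or lower (blue) in 7R at an adjusted p of 0.05, before (left) and after (right) adjustment, for the 32 members, 5 other lists and all genes. Before adjustment 68.8% of the members were called higher and 25.0% lower, against 39.3% and 36.9% of all genes; after it, 34.4% and 40.6%, against 34.3% and 32.7%.

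**Figure D5:**
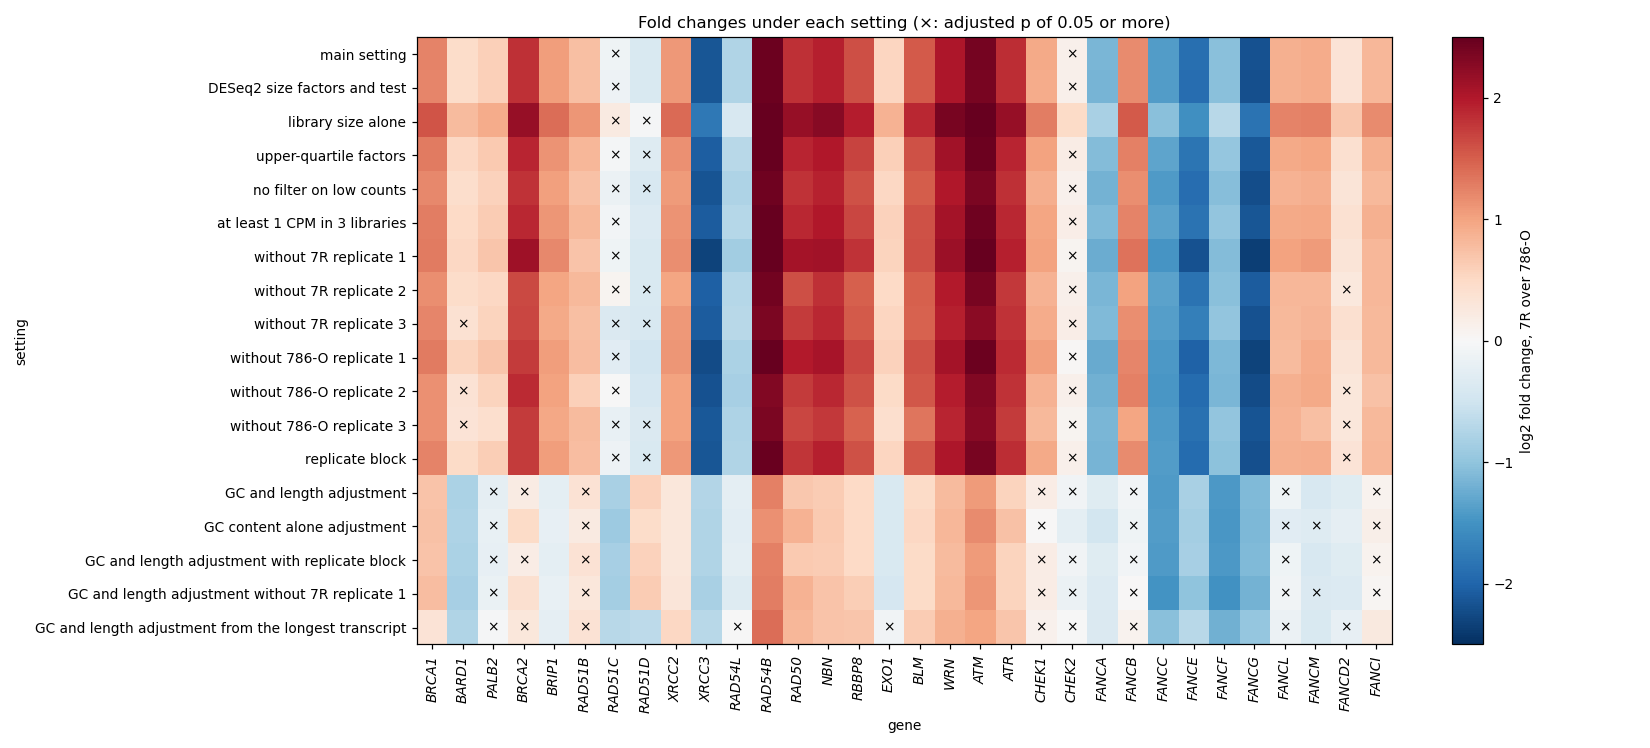
Log2 fold change (colour, 7R over 786-O) of each member under each setting (rows), with a cross where the adjusted p was 0.05 or more. Apart from RAD51C, the settings without an adjustment for GC content have the same direction. Those with one, at the bottom, are mostly paler, and BARD1 and EXO1, among others, turn from red to blue there. The Fanconi core genes FANCA, FANCC, FANCE, FANCF and FANCG are blue with and without it.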

How the data were processed

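Total RNA of 7R and 786-O cells was sequenced, 3 libraries each. The deposited table holds raw read counts per gene symbol for the 6 libraries, and 0 columns were left unmatched to a sample. Reads were aligned with HISAT2 2.0.4, per the submitters' processing notes. The counter and its settings, strand included, and the build and gene models were not given in the sources used here. Genes were kept with edgeR's filterByExpr and tested with edgeR 4.0.16 (TMM factors, quasi-likelihood test, limma 3.58.1, R 4.3.3) with Benjamini-Hochberg adjustment over 16642 genes, 7R against 786-O. SE is the log2 fold change divided by the square root of F.

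For the adjusted fit, each library's deviation in log2 CPM (prior count 1) was fitted with splines on GC content (6 df) and log2 length (5 df), taken as medians over a gene's GENCODE 29 basic transcripts. The fitted trend entered as an offset for the 14201 genes (85.3% of those tested) with a value. This step also removes any biological difference that follows GC content or length.

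The 32 genes, the comparison lists and the tests were chosen with earlier results of these data known. All members are named, with every library's value for those called in the same direction or in opposite directions by both fits and for BRCA2 and FANCI; from each other list up to 4 genes with the smallest p were named, plus MRE11; 1 further gene is not reported here. The genes UBE2T, NPAT, ZFYVE21, NBR1, NBR2, DCTN5, MOSPD2, CIDECP, HSCB, FKBP3 and ZNF276, and the promoters shown, were chosen after their values were seen. Alternatives were DESeq2 1.42.0, other scalings and filters, each library left out, a replicate block and GC content alone. Chosen after seeing the data were GC content and length of the longest transcript, and leaving out each library other than 7R replicate 1 in the adjusted fit. The code was tested on simulated data. No further batch is named in the labels. Floors cover counting error only, while SEs and SDs also take in the spread among the libraries.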

Additional observations from a re-analysis of the deposited data

How the results depend on the processing

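Of the 32 members, 0 changed call with DESeq2, with a filter of 1 CPM in 3 libraries, or without 7R replicate 1 or 786-O replicate 1. Same-numbered libraries of the lines showed no sign of pairing (r -0.13, -0.01 and -0.06), where other pairs ran from -0.10 to 0.13. These values cannot settle whether the libraries were paired. With the replicate block 21 members were higher and 7 lower, and RAD51D (adjusted p = 0.0686) and FANCD2 (0.0503) lost their call. Without each library in turn, 20 to 22 members were higher and 7 to 8 lower, and S phase genes higher numbered 2 to 4. By library size alone, the median of all genes shifted to 0.39 (7851 genes higher and 4720 lower), with 7 S phase genes higher and 4 end joining genes lower.

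The adjustment for GC content and length moved 6 of 14 counts by over 1.5 times, and the cause was not tested. With GC and length adjusted, with GC alone, with the block added, and without 7R replicate 1, members higher were 11, 12, 11 and 12, other pathway genes higher 13, 14, 13 and 14, S phase genes higher 1 in each, end joining genes lower 3 in each, and G2 and M phase genes higher 2, 4, 1 and 3. Members lower were 13 in the first 3 of these. Without 7R replicate 1, 8 mismatch repair and 20 G2 and M phase genes were lower. Leaving out 1 library under the adjustment gave 11 to 12 members higher and 10 to 13 lower.

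Signs turned with GC and length, and with GC alone, for BARD1 (-0.79, -0.77), PALB2 (-0.22, -0.18), BRIP1 (-0.24, -0.20), RAD51D (0.58, 0.46), EXO1 (-0.39, -0.39), CHEK2 (-0.081, -0.24), FANCB (-0.066, -0.11), FANCL (-0.12, -0.28), FANCM (-0.41, -0.32) and FANCD2 (-0.29, -0.22). RAD51C turned by library size alone (0.23), and with each library left out it ran between -0.35 (without 7R replicate 3) and 0.065 (without 7R replicate 2). The adjusted value turned for RAD51D with the longest transcript (-0.66), and for FANCB with it (0.088), without 7R replicate 1 (0.014) and without 786-O replicate 2 (0.043). By counts over the 6 libraries, depth was least for RAD51C, FANCF, RAD51B and FANCM.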
